A study of Homo sapiens with 4 samples.

Results

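YAP1, WWTR1 (the gene of TAZ), TEAD1, TEAD2, TEAD3, TEAD4, CTGF, CYR61, ANKRD1 and AMOTL2 are the 2 coactivators, the 4 DNA-binding partners and 4 standard target genes of the YAP-TAZ-TEAD system. They were read by symbol from a table of 63677 rows, in which each of the 10 symbols had 1 row. All 10 were among the 16064 genes with enough reads to be tested. After depletion of the receptor tyrosine kinase AXL, TEAD2 mRNA rose to 154% of the control mean, ANKRD1 fell to 59.6% and AMOTL2 fell to 72.3%, while the other 7 genes did not pass the test.

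The study knocked down AXL in MDA-MB-231 cells, a triple-negative breast cancer line grown from a metastatic effusion, to obtain an AXL gene expression signature by RNA-seq of total RNA. The control group (siCt) received a control siRNA and the depleted group (siAXL) a pool of siRNAs against AXL, each by lipid transfection, and each group had 2 libraries. The culture methods of the study name a luciferase-expressing derivative of the line, whereas the sample labels name MDA-MB-231. The time between transfection and RNA extraction and the sequences of the siRNA pool are not given in the sources used here, and every comparison rests on 1 cell line and 1 pool.

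Depth was 39574387 to 44585773 reads assigned to genes per library. Values below are normalized counts, which are reads divided by the size factor of the library, so that 1 read is worth 0.959 to 1.08. Nothing in the labels says that the libraries of a group came from separate cultures, so p-values measure only the spread between these libraries, which may be technical. Mitochondrial genes took 3.70% and 3.78% of reads in the libraries numbered 1 and 2.11% and 2.28% in those numbered 2, a split that followed the number and not the treatment. Of the mesenchymal markers, VIM was at 86751 to 99296 and CD44 at 33968 to 36518, while the hormone receptor genes ESR1 and PGR had 1 to 3 and 0 to 2 reads. ERBB2, the gene of HER2, was measured at 2949 to 3680 and was higher in siAXL (log2 fold change 0.26, adjusted p = 0.0258). The epithelial marker CDH1 was low, at 22.6 to 94.3, and fell by 1.64 on the log2 scale in siAXL (adjusted p = 0.00847). Other epithelial markers did not follow it: EPCAM had 565 and 625 in siCt and 711 and 771 in siAXL (log2 fold change 0.32, adjusted p = 0.0513), and KRT19 was at 30958 to 32106 with overlapping groups. The part of these cell state markers in the results below was not tested.

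The targeted gene AXL, itself known as a YAP target, had 29189 and 30617 normalized counts in siCt and 8658 and 7141 in siAXL. The groups were far apart, and siAXL kept 26.4% of the control mean (log2 fold change -1.93, SE 0.0918, adjusted p = 0.000585).

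The Hippo pathway is a kinase cascade in which STK3 and STK4 (the MST kinases) activate LATS1 and LATS2, which phosphorylate YAP and TAZ and so keep them in the cytoplasm or send them for degradation. Unphosphorylated YAP and TAZ enter the nucleus, where they bind DNA through the TEAD factors and raise transcription of genes for matrix proteins, cytoskeletal regulators and their own inhibitors. The pathway is controlled largely at the protein level, which mRNA counts do not measure. MDA-MB-231 cells are known to carry an inactivating mutation of NF2, the gene of merlin, an upstream activator of the kinases.

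The TEAD factors recognise the core GGAATG or its reverse complement CATTCC. The 250 bases before each annotated start were searched on both strands in RefSeq sequence (GRCh38.p14), which held 7 of the 10 genes, TEAD1, TEAD4 and CYR61 not being among them. Windows of 3 target genes held the core, and they are shown because their transcripts differed in response: ANKRD1 and AMOTL2 fell and CTGF did not. The CTGF window, chr6:131951373-131951622 on the minus strand, held 3 cores, at 169, 104 and 95 bases before the start. The ANKRD1 window, chr10:90921088-90921337 on the minus strand, held 2, at 220 and 128 bases. It also held 1 match to TGANTCA, a loose form of the AP-1 site that allows any middle base, at 195 bases. The middle base of this match is t, and the match shares no letters with the cores. AMOTL2 had 2 annotated windows, and the one at chr3:134374448-134374697 on the minus strand held 1 core at 69 bases, while the other held 0. The ANKRD1 window lies partly, and this AMOTL2 window wholly, inside the gene span given below, which comes from GENCODE and not from RefSeq. The sequences run 5′ to 3′ towards the start with the TEAD core in capitals.
CTGF: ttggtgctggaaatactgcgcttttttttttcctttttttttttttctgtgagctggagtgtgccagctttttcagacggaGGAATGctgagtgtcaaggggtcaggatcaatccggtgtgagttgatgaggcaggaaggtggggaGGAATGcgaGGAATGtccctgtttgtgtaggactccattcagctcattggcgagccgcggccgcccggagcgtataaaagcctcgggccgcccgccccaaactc
ANKRD1: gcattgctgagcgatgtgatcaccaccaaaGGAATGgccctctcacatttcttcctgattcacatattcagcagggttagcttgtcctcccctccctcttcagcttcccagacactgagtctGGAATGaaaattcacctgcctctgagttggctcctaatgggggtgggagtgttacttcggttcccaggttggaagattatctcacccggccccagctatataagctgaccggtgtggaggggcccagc
AMOTL2: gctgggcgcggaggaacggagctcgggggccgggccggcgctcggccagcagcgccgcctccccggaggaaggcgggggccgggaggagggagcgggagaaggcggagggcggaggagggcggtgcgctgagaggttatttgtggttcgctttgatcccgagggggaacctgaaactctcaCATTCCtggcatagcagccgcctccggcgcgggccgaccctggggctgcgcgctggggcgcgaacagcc

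Of the other matched genes, YAP1 had 1 core at 162 bases, and the windows of WWTR1, TEAD2 and TEAD3 held 0. Over all 35116 RefSeq windows of this length, 11.9% held at least 1 core, 0.940% at least 2 and 0.0826% at least 3. A match to TGANTCA was held by 6.57%. A match of letters is a description of the window and no evidence of binding in these cells.

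Across the 10 genes, 1 was higher and 2 were lower in siAXL (limma, adjusted p below 0.05). This threshold was passed by 18.7% of the genes tested, 10.8% higher and 7.91% lower. The 2 groups of libraries did not overlap for 8 of the 10 genes, with siAXL above in 3 and below in 5, against 61.2% of all genes tested, 30.6% above and 30.5% below. Non-overlap of 2 against 2 was therefore common, and for a single value an exact permutation test of this design cannot give a two-sided p under 0.333. The median log2 fold change was -0.13 over the 10 genes and -0.0022 over all genes tested. When siCt 1 was left out, 5 of the 10 genes passed, CTGF and CYR61 being added, and the count over all genes rose with it, from 3006 to 3900 of 16064. Scaling by library size moved the split of all genes called from 57.7% higher to 46.8% higher.

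**Figure D1:**
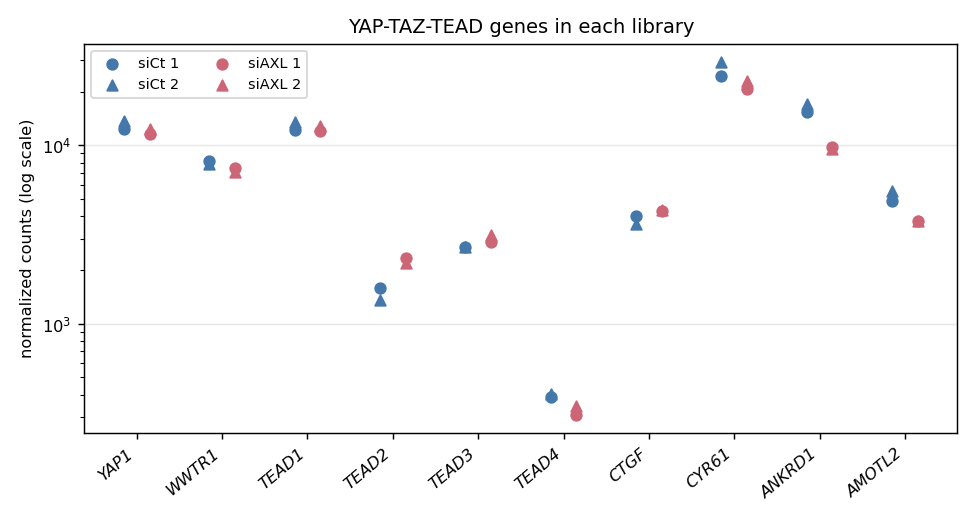
Normalized counts (log scale) of the 10 genes in each library, siCt in blue and siAXL in red, circles for libraries numbered 1 and triangles for those numbered 2. The siAXL points lie clear of siCt for TEAD2 (2191 to 2342 against 1362 to 1576) and ANKRD1 (9545 to 9717 against 15394 to 16947), and the groups overlap for YAP1 and TEAD1.

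YAP1 (ENSG00000137693; GRCh38 chr11:102110461-102233423, plus strand), the coactivator that binds TEADs and has no DNA-binding domain of its own, had 12259 and 13687 normalized counts in siCt and 11626 and 12363 in siAXL. The groups overlapped, since siAXL 2 lay above siCt 1. The means were 12973 ± 1009 (SD, n = 2) and 11994 ± 522 (SD, n = 2), and the log2 fold change of -0.11 had a 95% interval from -0.28 to 0.054 (adjusted p = 0.313). It was -0.19 without siCt 1 and -0.032 without siCt 2, and passed in neither fit.

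WWTR1 (ENSG00000018408), which encodes TAZ, the paralog of YAP, had 8195 and 7851 in siCt and 7484 and 7094 in siAXL. Both siAXL libraries were lower, at 90.9% of the control mean, and the difference missed the threshold (log2 fold change -0.14, 95% interval -0.27 to -0.0035, adjusted p = 0.139). Per kilobase of merged exons, the YAP1 level was 2.0 and 2.33 times the WWTR1 level in siCt and 2.08 and 2.33 times in siAXL. The ratio of the coactivators thus lay in the same range in both groups (two-sided exact permutation p = 1). Their summed level per kilobase was 2921 and 3107 in siCt and 2736 and 2807 in siAXL, lower in 2 of 2 libraries, which is p = 0.333 in the two-sided exact permutation test, the smallest possible.

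Among the TEAD factors, which carry YAP and TAZ to DNA, only TEAD2 passed the test. TEAD2 (ENSG00000074219; GRCh38 chr19:49340595-49362457, minus strand) had 1576 and 1362 normalized counts in siCt and 2342 and 2191 in siAXL. Both depleted libraries were above both controls, with means of 1469 ± 152 and 2266 ± 106 (SD, n = 2 each). The log2 fold change was 0.63 (SE 0.0849, 95% interval 0.43 to 0.83, adjusted p = 0.00509). It lay between 0.52 and 0.73 over the 12 other settings tried, and passed the threshold in each of them.

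TEAD1 (ENSG00000187079), the TEAD gene with the highest level in these cells, had 12132 and 13503 in siCt and 11999 and 12780 in siAXL. The groups overlapped (log2 fold change -0.048, 95% interval -0.21 to 0.12, adjusted p = 0.682), and the sign turned to 0.030 without siCt 2. TEAD3 (ENSG00000007866) had 2673 and 2687 in siCt and 2886 and 3146 in siAXL, above the controls in 2 of 2 libraries but short of the threshold (log2 fold change 0.17, 95% interval 0.018 to 0.32, adjusted p = 0.111, and log2 fold change 0.11 to 0.23 with 1 library left out). TEAD4 (ENSG00000197905), the scarcest of the family here, had 386 and 401 in siCt and 306 and 347 in siAXL. Both siAXL values were lower, at 82.9% of the control mean, and this difference also missed the threshold (log2 fold change -0.27, 95% interval -0.52 to -0.025, adjusted p = 0.116, and log2 fold change -0.36 to -0.18 with 1 library left out).

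The make-up of the TEAD transcripts per kilobase of merged exons moved with the rise of TEAD2. TEAD2 made up 19.2% and 16.2% of the summed TEAD level in siCt and 25.9% and 23.2% in siAXL. TEAD1 made up 42.8% and 46.4% in siCt and 38.5% and 39.3% in siAXL, and TEAD4 6.17% and 6.24% against 4.44% and 4.82%. Each of these shares separated the groups, with p = 0.333 in the two-sided exact permutation test. The shares are parts of the same total and so not independent of each other, and the TEAD1 counts themselves overlapped between the groups. The TEAD3 share, 31.8% and 31.2% in siCt and 31.2% and 32.6% in siAXL, did not separate them. The summed TEAD level per kilobase was 2757 and 2829 in siCt and 3035 and 3164 in siAXL. The ratio of TEAD2 to TEAD4 reads, 4.08 and 3.40 in siCt, was 7.65 and 6.32 in siAXL, the difference of TEAD2 being positive and that of TEAD4 negative.

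**Figure D2:**
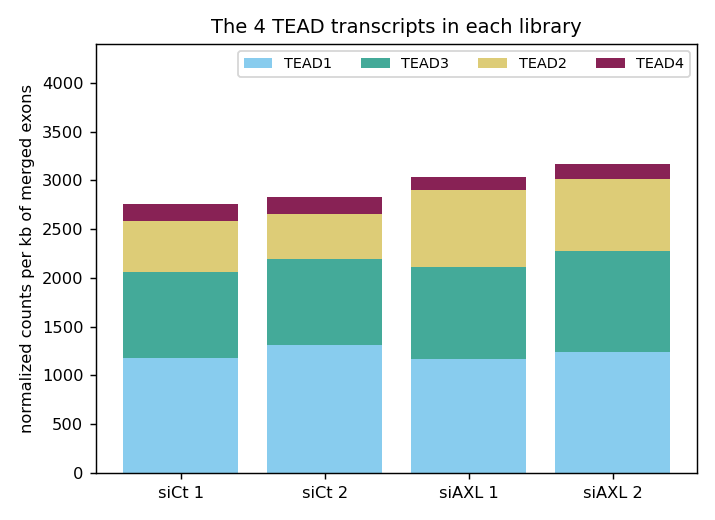
Normalized counts per kilobase of merged exons of the 4 TEAD genes, stacked in each library. The TEAD2 segment is 16.2% and 19.2% of the stack in siCt and 23.2% and 25.9% in siAXL, and TEAD1 is the largest segment in every library.

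ANKRD1 showed the greatest decrease of the 10 genes. ANKRD1 (ENSG00000148677; GRCh38 chr10:90912096-90921276, minus strand), which encodes an ankyrin repeat protein of the nucleus and the sarcomere and is a sensitive readout of YAP activity, had 15394 and 16947 normalized counts in siCt and 9717 and 9545 in siAXL. The siAXL libraries were close to each other and far below both controls, with means of 16171 ± 1098 and 9631 ± 122 (SD, n = 2 each). The log2 fold change was -0.75 (SE 0.0634, 95% interval -0.90 to -0.60, adjusted p = 0.00179) and ranged from -0.82 to -0.68 over the other settings, in all of which it passed the threshold.

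AMOTL2 (ENSG00000114019; GRCh38 chr3:134355874-134375479, minus strand), a junction scaffold of the angiomotin family that binds YAP and is also induced by it, had 4873 and 5506 in siCt and 3751 in each siAXL library. Both siAXL values were below both controls, at 72.3% of the control mean. The log2 fold change of -0.47 (SE 0.0701, 95% interval -0.63 to -0.30, adjusted p = 0.00697) ranged from -0.55 to -0.38 over the other settings and passed in all of them. Its relatives differed from it in level or in test result: AMOT had 1 to 3 reads and was not tested, and AMOTL1 had 4847 and 5784 in siCt and 4915 and 5352 in siAXL, with overlapping groups (log2 fold change -0.046, adjusted p = 0.770).

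The CCN target genes, which encode secreted matrix-associated proteins, did not pass. CYR61 (ENSG00000142871), now also named CCN1 and the most abundant of the 10 transcripts, had 24385 and 29414 in siCt and 20577 and 22781 in siAXL. Both siAXL values were lower, at 80.6% of the control mean and below both controls, which differed more from each other than the siAXL libraries did (log2 fold change -0.31, 95% interval -0.54 to -0.077, adjusted p = 0.0697). It passed the threshold in DESeq2 (adjusted p = 0.0139) and with scaling by library size (adjusted p = 0.0486). With library number as a block it also passed (limma, adjusted p = 9.97e-11), as did 7310 of all genes tested. The log2 fold change was -0.44 without siCt 1, -0.17 without siCt 2, -0.23 without siAXL 1 and -0.38 without siAXL 2.

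CTGF (ENSG00000118523), now also named CCN2, had 4009 and 3624 in siCt and 4279 and 4346 in siAXL. Both siAXL values were higher, at 113% of the control mean, and the difference missed the threshold (log2 fold change 0.18, 95% interval 0.024 to 0.33, adjusted p = 0.103). The log2 fold change was 0.25 without siCt 1 and 0.11 without siCt 2. The sign of the CTGF difference was thus opposite to that of the other 3 target genes. The ratio of CYR61 to CTGF reads was 6.08 and 8.12 in siCt and 4.81 and 5.24 in siAXL. The ratio of ANKRD1 to CTGF reads was 3.84 and 4.68 in siCt and 2.27 and 2.20 in siAXL. Each ratio was lower in 2 of 2 depleted libraries, with p = 0.333 in the two-sided exact permutation test.

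**Figure D3:**
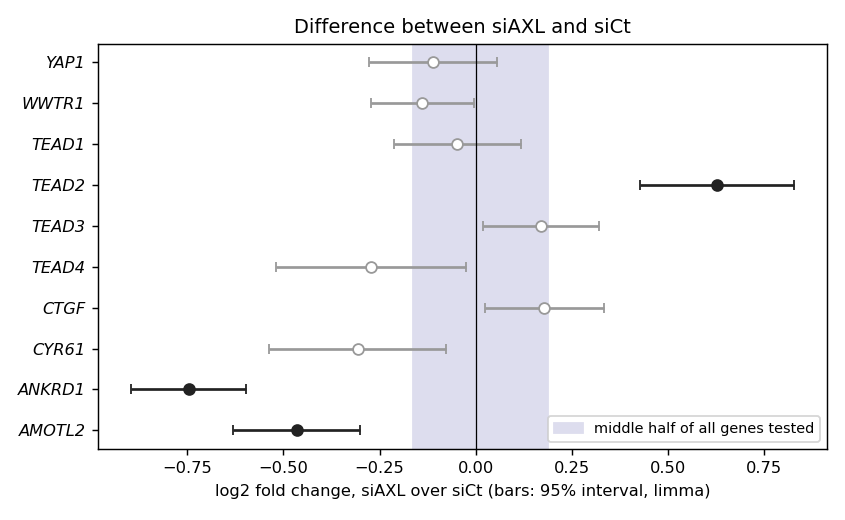
Log2 fold change of siAXL over siCt for each gene with its 95% limma interval, and in grey the middle range of all genes tested, from -0.16 to 0.19. TEAD2 lies to the right at 0.63, ANKRD1 and AMOTL2 to the left at -0.75 and -0.47, and the interval of YAP1 and of TEAD1 spans 0.

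On the scale of normalized counts per kilobase of merged exons, CYR61 had the highest level in siCt (9933 to 11981), then ANKRD1 (7779 to 8564), YAP1 (1947 to 2174), CTGF (1550 to 1714), TEAD1 (1180 to 1314), WWTR1 (933 to 974), TEAD3 (878 to 882), AMOTL2 (814 to 920), TEAD2 (457 to 529) and TEAD4 (170 to 176). Of the neighbours in this order, TEAD3 and AMOTL2 overlapped. In siAXL, the levels of YAP1 (1847 to 1964) and CTGF (1830 to 1858) overlapped, and TEAD2 (735 to 786) stood above AMOTL2 (627 in both libraries). With the longest coding transcript as the length, TEAD2 also stood above AMOTL2 in siAXL (898 to 960 against 830) and below it in siCt (558 to 646 against 1078 to 1218), whereas WWTR1 then overlapped TEAD1. Genes that overlap the members' exons had at most 8.49 normalized counts on average (WWTR1-AS1 with WWTR1), against 7094 or more for WWTR1 itself.

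**Figure D4:**
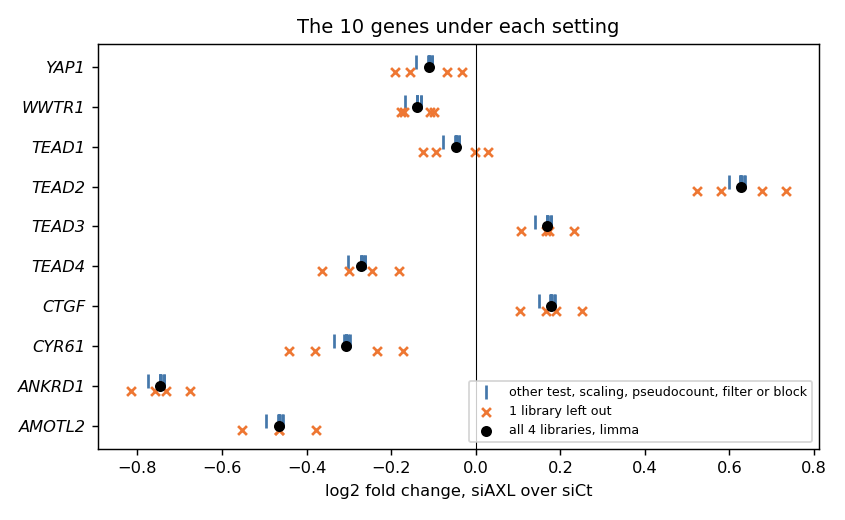
Log2 fold change of each gene with all 4 libraries in limma (black point), under the other tests, scalings, pseudocounts, filter and block (blue bars) and with 1 library left out (orange crosses). The settings keep TEAD2 between 0.52 and 0.73 and ANKRD1 between -0.82 and -0.68, and TEAD1 crosses 0 without siCt 2.

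Lists of 121 other genes around the pathway, chosen with earlier results of these data known, were counted next, and 108 of the genes were tested. Of these, 18 were higher and 9 lower in siAXL and 81 did not pass, which is 25% past the threshold against 18.7% of all genes. The count was 12 without siAXL 1 and 11 without siAXL 2, and 13 of the same list passed when the only filter was at least 1 count in any library. The median log2 fold change was 0.030, against -0.0022 over all genes tested. From fit to fit with 1 library left out, adjusted p-values did not follow the size of a difference. FYN passed without siCt 2, at a log2 fold change of 0.27, and did not without siAXL 2, at 0.35. A call lost in such a fit therefore does not show that a gene depends on the library left out. All 27 list genes that passed in the main test kept their sign with any 1 library left out. The calls of WWC2, LATS2, LIMD1, RUNX2, NT5E, IGFBP3, FSTL1, CRIM1, CCDC80 and CAV1 held in all 12 other settings. The like count over all genes called was not made.

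Among 18 tested Hippo kinases, adaptors and scaffolds, 3 were higher, 1 was lower and 14 did not pass. That is 22.2% past the threshold against 18.7% of all genes, with a median log2 fold change of 0.057. LATS2, a kinase that phosphorylates YAP and TAZ and is also a YAP target, rose from 1196 and 1221 to 1573 and 1629 (log2 fold change 0.41, SE 0.0639, adjusted p = 0.00823). Its paralog LATS1 had 1899 and 2166 in siCt and 1760 and 1990 in siAXL, with overlapping groups (log2 fold change -0.12, adjusted p = 0.417). WWC2, a scaffold that activates LATS kinases, rose from 2479 and 2405 to 3152 and 3178 (log2 fold change 0.37, SE 0.0560, adjusted p = 0.00694).

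The paralog WWC1 (KIBRA) fell from 3827 and 4092 to 3244 and 3431 (log2 fold change -0.25, adjusted p = 0.0362), a call lost without siCt 2 (adjusted p = 0.126), siAXL 1 (0.189) or siAXL 2 (0.0719). MOB1A, the adaptor of the LATS kinases, rose from 7308 and 7153 to 8277 and 8433 (log2 fold change 0.21, adjusted p = 0.0341), which no fit with 1 library left out kept (adjusted p up to 0.167). WWC1 and WWC2 had differences of opposite sign.

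The MST kinases had lower values in siAXL, short of the threshold in the main limma test. STK4 had 5115 and 5548 in siCt and 4468 and 4691 in siAXL (adjusted p = 0.0534). STK4 passed in limma with TMM scaling (adjusted p = 0.0480), library size scaling (0.0294) or library number as a block (5.84e-06), and in edgeR (0.0486). Its log2 fold change was -0.28 without siCt 1, -0.16 without siCt 2, -0.18 without siAXL 1 and -0.25 without siAXL 2. STK3 had 1213 and 1289 against 940 and 1121 (log2 fold change -0.28, adjusted p = 0.0832). STK3 passed in limma with library number as a block (adjusted p = 5.89e-05). Its log2 fold change was -0.33 without siCt 1, -0.24 without siCt 2, -0.16 without siAXL 1 and -0.41 without siAXL 2. Their partner SAV1 had 4532 and 4564 against 4252 and 4323 (adjusted p = 0.304). MOB1B had 2711 and 2966 against 3168 and 3162 (adjusted p = 0.132), and NF2 366 and 390 against 445 in each siAXL library (adjusted p = 0.119). Differences of these members of the cascade were therefore of both signs, and none of the 5 passed in the main limma test.

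Of 27 tested genes of cell junctions and other upstream regulators, 3 were higher, 1 was lower and 23 did not pass, which is 14.8% against 18.7% of all genes. LIMD1, a LIM protein that inhibits LATS kinases, rose from 4254 and 4059 to 5514 and 5557 (log2 fold change 0.41, SE 0.0550, adjusted p = 0.00487). AJUBA, of the same LIM family, moved the other way, from 8395 and 9009 to 7205 and 6983 (log2 fold change -0.29, adjusted p = 0.0175), a call lost without siAXL 1 (adjusted p = 0.0519) or siAXL 2 (0.0782). PTPN21, a phosphatase, rose from 2927 and 2959 to 3608 and 3800 (log2 fold change 0.33, adjusted p = 0.0110, and 0.0613 without siAXL 2). DLG5, a polarity scaffold, rose from 5190 and 5492 to 6288 and 6769 (log2 fold change 0.29, adjusted p = 0.0224, and 0.113 without siAXL 2).

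Of 12 genes of kinases, phosphatases, ligases and their partners around YAP and TAZ, 3 were higher, 2 were lower and 7 did not pass. That is 41.7% past the threshold against 18.7% of all genes, with a median log2 fold change of -0.020. The Src-family kinase FYN rose from 1521 and 1418 to 1874 and 1789 (log2 fold change 0.32, adjusted p = 0.0216), and lost its call without siAXL 1 (adjusted p = 0.111) or siAXL 2 (0.0546). The phosphatase subunit PPP1CA had 6058 and 6200 in siCt and 6954 and 7539 in siAXL (log2 fold change 0.24, adjusted p = 0.0346), and the tyrosine kinase ABL1 6487 and 6422 against 7224 and 7689 (log2 fold change 0.21, adjusted p = 0.0442). NUAK2, a kinase induced by YAP that acts back on the pathway, had 313 and 299 against 239 and 210 (log2 fold change -0.45, adjusted p = 0.0375), and NUAK1 3092 and 3164 against 2708 and 2718 (log2 fold change -0.21, adjusted p = 0.0425). Each of these 4 genes lost its call in 3 or 4 of the fits with 1 library left out, with adjusted p up to 0.195 for PPP1CA, 0.242 for ABL1, 0.179 for NUAK2 and 0.189 for NUAK1, so the list has no call that held in all of them.

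Among 8 tested partners of the TEAD factors, 1 was lower and 7 did not pass. That is 12.5% past the threshold against 18.7% of all genes, with a median log2 fold change of -0.063. RUNX2, a Runt-domain transcription factor that binds YAP and TAZ, fell from 3954 and 4251 to 3046 and 3093 (log2 fold change -0.42, SE 0.0602, adjusted p = 0.00622). VGLL4, which competes with YAP for TEADs, had 2684 and 2660 in siCt and 2665 and 2694 in siAXL (log2 fold change 0.0041, adjusted p = 0.969).

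Further genes commonly listed as YAP or TAZ targets moved in both directions, with 9 higher, 4 lower and 18 not passing of 31 tested. That is 41.9% past the threshold against 18.7% of all genes, with a median log2 fold change of 0.10. This list too was chosen with earlier results of these data known. NT5E, the ectonucleotidase CD73, showed the largest difference among the listed genes, from 15634 and 14095 to 35043 and 36343 (log2 fold change 1.27, SE 0.0676, adjusted p = 0.000692). IGFBP3, a secreted binding protein of insulin-like growth factors, rose from 565 and 554 to 1016 and 988 (log2 fold change 0.84, SE 0.0741, adjusted p = 0.00184). FSTL1, a secreted glycoprotein, rose from 6399 and 6189 to 9603 and 10284 (log2 fold change 0.66, SE 0.0587, adjusted p = 0.00184). The groups were far apart for all 3 genes.

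The lower targets were AJUBA and NUAK2, given above, TGFB2 and INHBA. TGFB2, a ligand of the TGF-beta family, had 4074 and 4558 in siCt and 3515 and 3385 in siAXL (log2 fold change -0.32, adjusted p = 0.0226), and lost its call without siCt 2 (adjusted p = 0.0533), siAXL 1 (0.0512) or siAXL 2 (0.0818). INHBA, an activin subunit, had 942 and 1118 against 771 and 783 (log2 fold change -0.40, adjusted p = 0.0300), and lost its call without siCt 2 (adjusted p = 0.0841), siAXL 1 (0.0896) or siAXL 2 (0.0709). Target genes of the list were thus on both sides of 0, as were CTGF and the other target genes among the 10.

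**Figure D5:**
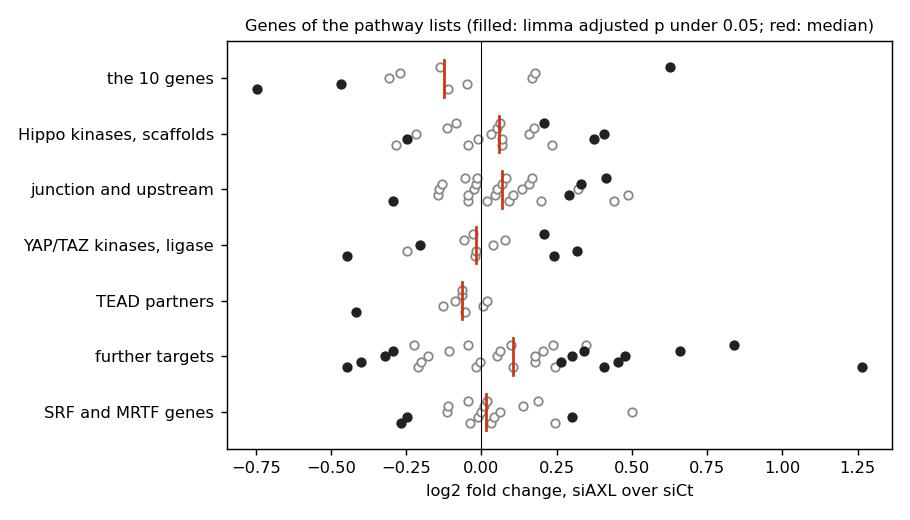
Log2 fold change of siAXL over siCt for the 10 genes and the genes of the lists, without the paralogs of the target genes, filled where the limma adjusted p was under 0.05, with the median of each list as a red line. Filled points lie on both sides of 0 in every row drawn except the TEAD partners, where the only filled point is RUNX2 at -0.42, and the point farthest to the right is NT5E at 1.27.

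Paralogs of the target genes were scarce. Of 6 relatives of CTGF, CYR61 and ANKRD1, only NOV (CCN3) had enough reads to be tested, with 533 and 547 in siCt and 468 and 526 in siAXL (log2 fold change -0.12, adjusted p = 0.408). WISP1 had 0 reads in each control library and 6 and 1 reads in siAXL. WISP2 had 14 and 6 against 3 and 6, and WISP3 had 0 in all 4 libraries. A count of 0 allows an expected count of up to 3 reads. ANKRD2 had 0 or 1 read per library and ANKRD23 had 8 to 10.

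CTGF, CYR61 and ANKRD1 are also known targets of SRF, the serum response factor, and its actin-regulated MRTF coactivators. Of 18 tested SRF and MRTF genes, 1 was higher, 2 were lower and 15 did not pass (16.7% past the threshold against 18.7% of all genes, median log2 fold change 0.014). SRF itself fell from 6278 and 6171 to 5142 and 5192 (log2 fold change -0.27, adjusted p = 0.0156, and 0.0845 without siAXL 1 or 0.0656 without siAXL 2). FHL2, a LIM-only cofactor, had 2972 and 3087 in siCt and 2506 and 2597 in siAXL (log2 fold change -0.25, adjusted p = 0.0286), and passed only without siCt 1 among the fits with a library left out (adjusted p up to 0.156). VCL, the focal adhesion protein vinculin, rose from 21723 and 21692 to 26479 and 26969 (log2 fold change 0.30, adjusted p = 0.0121, and 0.0529 without siAXL 1 or 0.0652 without siAXL 2).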

How the data were processed

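Total RNA of 4 MDA-MB-231 samples (2 siCt, 2 siAXL) was sequenced on the Illumina platform. The submitters' processing notes name CASAVA 1.8, TopHat2 2.0.10, HTSeq 0.5.3, DESeq2 1.4.5 and GRCh37, and the strand setting is not given in the sources used here. The signal values used are normalized counts, which the authors made by dividing reads per gene by a DESeq2 size factor. The deposited log2 fold changes, the score of each test and the p-values of the authors' own comparison were not used. Whole reads were recovered for 100% of values (tolerance 0.01 of a read), and gave depths of 39574387 to 44585773.

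The main test was limma 3.58.1 (R 4.3.3) with a mean-variance trend. Values were log2(normalized count + 1), so that fold changes of scarce transcripts come out too small. It was fitted to the 16064 genes that passed edgeR's expression filter, with Benjamini-Hochberg adjustment over all of them and a threshold of 0.05, and was tested on simulated data. Alternatives were edgeR 4.0.16 and DESeq2 1.42.0 on the recovered reads, TMM and library size scaling, pseudocounts of 0.5 and 8, a filter of at least 1 count, a replicate block, and each library left out in turn, where the lone library of a group is assumed to vary like the others. Adjusted p-values from fits with a library left out are not comparable with each other or with those of all 4 libraries. In a bulk sample, fewer cells with a transcript and fewer transcripts per cell cannot be told apart.

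The 10 genes, the 7 lists and the tests were chosen with earlier results of these data known. Genes named were the 10 members, AXL, up to 3 higher and 3 lower genes of each list by smallest adjusted p, the core kinases and their adaptors, all CCN and ANKRD paralogs, and the 2 genes nearest in pattern to each member that passed. The other higher target genes that passed were named as well. Gene lengths and positions came from GENCODE 29 (GRCh38) by Ensembl ID, and promoter sequences from RefSeq (GRCh38.p14), matched by symbol or synonym, while the reads were aligned to GRCh37, so no position was carried between builds.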

Additional observations from a re-analysis of the deposited data

How the results depend on the processing

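The calls of TEAD2, ANKRD1 and AMOTL2 held in all 12 other settings, with adjusted p up to 0.0376, 0.0250 and 0.0424. Of the 10 genes 3 passed, against 3 to 5 with 1 library left out. Of the listed genes 27 passed, against 13 with a filter of at least 1 count, 10 at a threshold of 0.01 and 11 to 29 with 1 library left out. Of all genes 3006 passed, against 1097 with that filter, 859 at 0.01 and 1301 to 3900 with 1 library left out (1301 without siAXL 1, 1518 without siAXL 2, 2478 without siCt 2 and 3900 without siCt 1). The log2 fold change of TEAD1 was -0.12 to 0.030 with 1 library left out and turned sign without siCt 2, and the cause was not tested. CYR61 alone among the 7 genes that did not pass did so under DESeq2 and library size scaling, as given in the report. Of all genes, edgeR called 3122 and DESeq2 2596.

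The labels number the libraries 1 and 2 in each group without saying what the number marks. Deviations of same-numbered libraries from their group means correlated at 0.271 over genes, and with only 2 pairs the numbers were not taken as pairs. With the replicate block 9 of the 10 genes passed (3 higher, 6 lower, TEAD1 being the exception), as did 59 of the listed genes and 7310 of all genes. With 2 libraries a group, the precision of a gene rests on the spread shared across genes, and the median SE was 0.0891 on the log2 scale.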

Other observations

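For each of the 3 genes that passed, the 2 genes with the nearest pattern over the 4 libraries were found by the root mean square difference of mean-centred log2 values. TEAD2 was nearest to PDLIM3 (difference 0.0107) and CNTNAP3 (0.0126), with 390 genes within 0.1. ANKRD1 was nearest to C9orf41 (0.0192) and RMND5A (0.0195), with 117 genes within 0.1, and AMOTL2 to POLR3K (0.00785) and TXNRD1 (0.0158), with 785 within 0.1. PDLIM3 had 198 and 172 normalized counts in siCt and 292 and 272 in siAXL, and TXNRD1 had 51598 and 57962 against 39250 and 40412. Likeness over 4 libraries of 2 groups is shared by many genes and is given as a description.

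Some regulators of the pathway differed by library number and not by treatment, and the 4 genes given here were chosen after their values were seen. PTPN14, a phosphatase that binds YAP, had 10625 in siCt 1 and 11418 in siAXL 1 against 14731 in siCt 2 and 14749 in siAXL 2. FAT1, an atypical cadherin, had 18938 and 20626 in the libraries numbered 1 against 27169 and 27907 in those numbered 2, and FAT4 had 1400 and 1524 against 2157 and 2247. The kinase TAOK1 had 7390 and 7361 against 10218 and 9634. In relative size these differences exceeded those between siCt and siAXL for YAP1, WWTR1 and TEAD1, and the share of mitochondrial reads split the libraries in the same way.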
